A study of Mus musculus with 6 samples.

Results

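The genes described here are 39 genes of the endoplasmic reticulum (ER) protein-folding machinery and of the unfolded protein response (UPR), out of 37043 gene symbols counted in mouse bone marrow-derived basophils (BMBAs). They were taken by symbol as a list of ER chaperones, folding enzymes, UPR sensors, degradation factors and translocation factors. The rule is a list of names with no threshold on a measured value, but the list was drawn up with earlier results of these data known. All cells came from wild-type C57BL/6J bone marrow cultured for 7 days, with 0.3 ng/mL of a cytokine. According to the methods of the study that cytokine was IL-3, so the control cells had also been raised in it. Basophils were enriched with anti-CD49b beads and then given 10 ng/mL IL-3 (n = 3 libraries) or PBS as the control (n = 3 libraries) for 6 h. The sources used here do not say whether the PBS medium still held IL-3. The libraries of a group are separate cultures according to the study. The sources used here do not say whether the cultures came from separate animals, so p-values measure the spread between cultures.

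Secreted and membrane proteins are threaded into the ER through the Sec61 channel, lose their signal peptide, and fold with the help of chaperones and of enzymes that form disulfide bonds. Proteins that fail to fold are drawn back to the cytosol and degraded, a process called ER-associated degradation. When unfolded proteins accumulate, the sensors IRE1 (encoded by Ern1), ATF6 and PERK (encoded by Eif2ak3) start the UPR, in which the transcription factors XBP1, ATF6 and ATF4 raise the genes of this machinery. IL-3 is a growth and activation cytokine of basophils, which store granule proteins and secrete cytokines such as IL-4.

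Most of these genes were higher after IL-3. Of the 39 genes, 38 passed the filter on low counts and were tested, and of these 25 were called higher, 3 were called lower (Edem2, Wfs1 and Herpud1) and 10 were not called at an adjusted p below 0.05. The median log2 fold change of the tested members was 0.27, with a range from -0.80 to 2.31, against a median of -0.0033 over all 16675 tested genes and of 0.054 over the 7770 tested genes with a mean of at least 15 CPM (read counts scaled for library size). Over all tested genes 38.2% were called, 18.0% higher and 20.2% lower. The tested members were well-expressed genes, each at that level, and the 7770 genes had 52.3% called, 29.4% higher and 22.8% lower. The IL-3 and PBS libraries did not overlap in 29 tested members (26 of them higher, 3 lower), while 48.2% of all tested genes showed no overlap. With library totals in place of TMM scaling, all genes moved down together, with a median shift of -0.16, and 18 members were then called higher and 5 lower with a median of 0.10. The share of member calls that were higher was 89.3% with TMM and 78.3% with library totals, against 47.1% and 25.2% of the calls over all tested genes. Among the 7770 genes, 2285 of the 4060 calls with TMM were higher. Values given below for library totals hold this common shift.

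**Figure D1:**
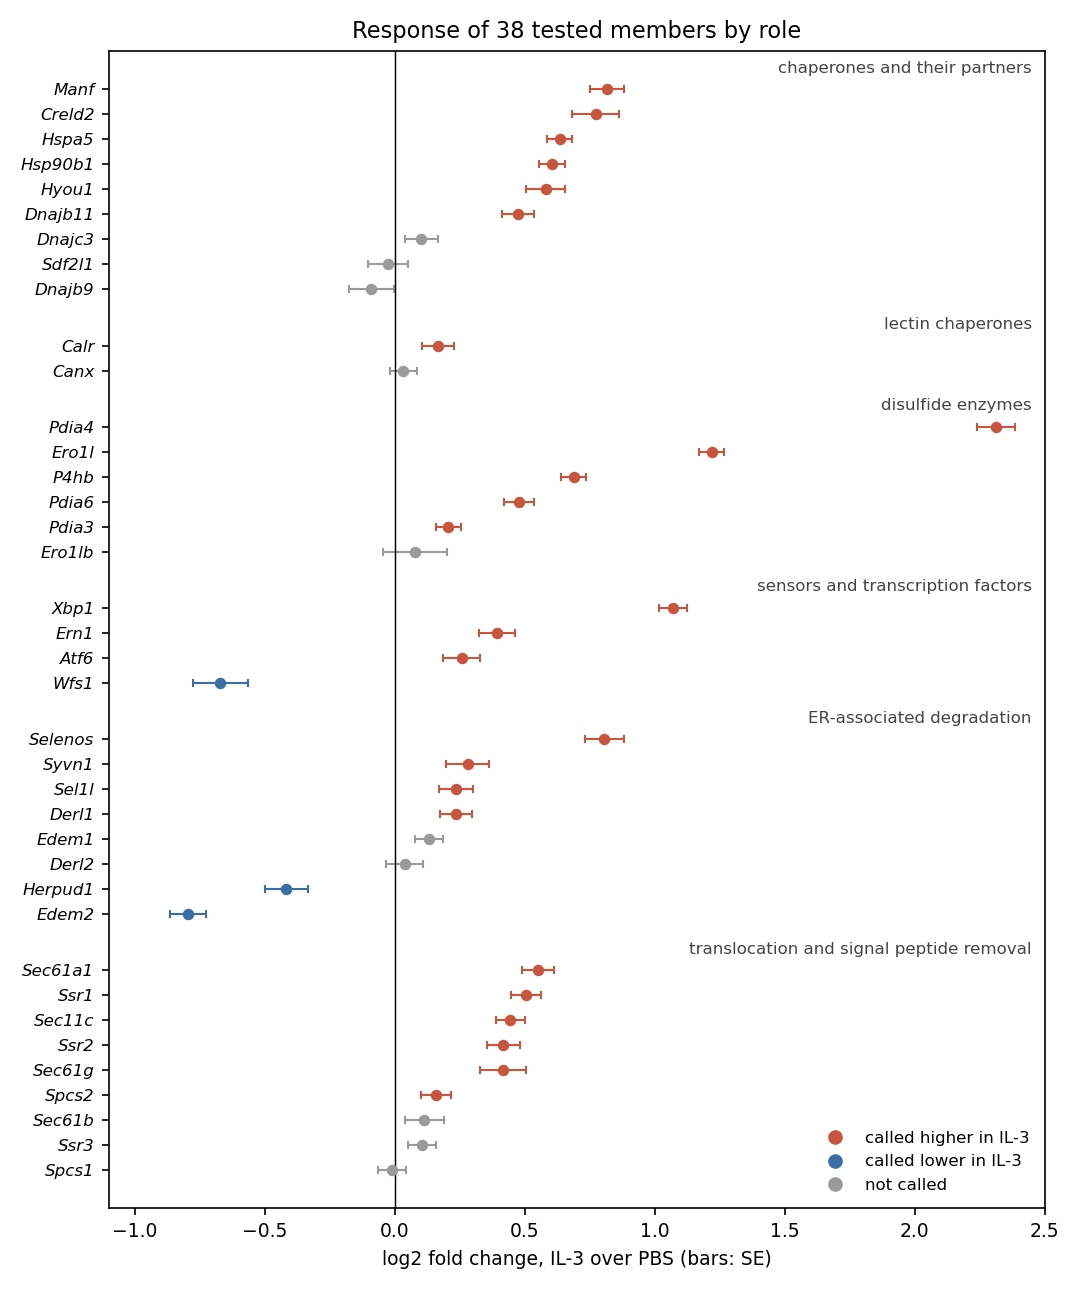
Log2 fold change of each tested member, IL-3 over PBS, with bars of 1 standard error, grouped by role and coloured by call. Pdia4 at 2.31, Ero1l at 1.22 and Xbp1 at 1.07 stand to the right of the other members, and Edem2, Wfs1 and Herpud1 are the 3 members called lower.

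The members together took 0.602% ± 0.00532 (SD, n = 3) of all counts with PBS and 0.785% ± 0.0205 (SD, n = 3) with IL-3. Their summed normalised expression ranged from 5679 to 5727 CPM in the PBS libraries and from 8286 to 8362 CPM in the IL-3 libraries, and the groups did not overlap. Ero1l alone made up 34.6% of the rise in the sum, Pdia4 12.3% and Xbp1 9.82%. Leaving these 3 genes out, the mean sum went from 4712 to 5843 CPM, a ratio of 1.24 in place of 1.46. The rise in the sum was therefore uneven. The other tested members ranged in log2 fold change from -0.80 (Edem2) to 0.82 (Manf), so the ratio of 1.24 nets rises against falls.

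Marker genes of several cell types also differed between the groups, and not all in one direction within a list. Basophil markers, which include Mcpt8 and Cd200r3, were present in every library, and their summed level lay between 10250 and 11444 CPM with PBS and between 15297 and 15494 CPM with IL-3, with 6 of 8 genes higher and 1 lower (Fcer1a, log2 fold change -0.50, against 1.31 for Cd200r3). Of 8 monocyte and macrophage markers 1 was higher (Adgre1, 0.53) and 6 were lower (Lyz2, -0.97, among them), and their sum lay between 11693 and 12618 CPM with PBS and between 6108 and 6740 CPM with IL-3. Fewer cells of a type and less RNA per cell cannot be told apart in bulk samples, and the part of these shifts in the results on the ER genes was not tested.

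Among the chaperones of the ER lumen and their partners, 6 of 9 rose, none fell and 3 were not called, with a median log2 fold change of 0.58. That is 66.7% called, against 52.3% of the 7770 genes at a mean of at least 15 CPM. Hspa5 encodes BiP, the main Hsp70 of the ER, which also holds the UPR sensors inactive. Hspa5 (ENSMUSG00000026864, chr2:34771970-34777547, plus strand, GRCm38) measured 333, 332 and 342 CPM in the PBS libraries and 507, 524 and 530 CPM in the IL-3 libraries. No IL-3 library fell within the PBS range, and the log2 fold change was 0.63 (SE 0.0475, adjusted p = 2.76e-08), or 1.55-fold. Hsp90b1, the Hsp90 of the ER (GRP94), rose to the same extent, with a log2 fold change of 0.60 (SE 0.0492), and Hyou1, a nucleotide exchange factor and holdase that works with BiP, had 0.58 (SE 0.0750).

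The largest rise of this group belonged to Manf, a secreted ER stress factor that binds BiP. Manf measured 91.2, 82.2 and 96.1 CPM with PBS and 157, 162 and 156 CPM with IL-3, a log2 fold change of 0.82 (SE 0.0644, adjusted p = 5.04e-08). Creld2, another secreted ER stress-inducible protein, measured 29.9, 33.5 and 38.2 CPM with PBS and 60.8, 58.0 and 54.7 CPM with IL-3, a log2 fold change of 0.77 (SE 0.0914, adjusted p = 5.47e-06). In both genes every IL-3 library lay above every PBS library. Of the J-domain proteins, which bring clients to BiP, Dnajb11 rose with a log2 fold change of 0.47 (SE 0.0614), whereas Dnajb9 (-0.091, SE 0.0862) and Dnajc3 (0.10, SE 0.0641) were not called. Sdf2l1, which partners Dnajb11, was also not called, at -0.027 (SE 0.0762), and its groups overlapped. Members known as ER stress-inducible genes thus lay on both sides of the threshold: Manf and Creld2 passed it, and Dnajb9 and Sdf2l1, at mean levels of 37.9 and 57.1 CPM with PBS, did not.

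The lectin chaperones Calr (calreticulin) and Canx (calnexin) hold glycoproteins by their sugars while they fold. Calr measured 532, 604 and 501 CPM in the PBS libraries and 640, 604 and 591 CPM in the IL-3 libraries. The ranges overlapped, and its log2 fold change, 0.17 (SE 0.0624), passed the test at an adjusted p of 0.0479. That call was lost when PBS replicate 1, PBS replicate 3, IL-3 replicate 1 or IL-3 replicate 2 was left out, with adjusted p from 0.0911 to 0.208, and with library totals (adjusted p = 0.968). Over all alternatives its adjusted p ranged from 0.00454 to 0.968. Canx was not called, with a log2 fold change of 0.032 (SE 0.0530) and 238 ± 1.42 CPM (SD, n = 3) with PBS against 243 ± 11.1 CPM (SD, n = 3) with IL-3. With library totals the median of the pair was -0.063, in place of 0.099.

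The enzymes of disulfide bond formation held the largest rises of the 39 genes. Of 6 enzymes, 5 rose and 1 was not called (83.3% called, against 52.3% of genes at a mean of at least 15 CPM). The median log2 fold change of the enzymes was 0.58, and their summed level went from between 1577 and 1636 CPM to between 3060 and 3152 CPM. Pdia4 (ERp72, ENSMUSG00000025823, chr6:47796141-47813430, minus strand, GRCm38) is a protein disulfide isomerase. Pdia4 measured 81.4, 86.5 and 75.3 CPM with PBS and 420, 427 and 362 CPM with IL-3. The lowest IL-3 library was far above the highest PBS library, and the log2 fold change was 2.31 (SE 0.0732, adjusted p = 6.87e-13), or 4.97-fold. Ero1l (ERO1α, ENSMUSG00000021831, chr14:45283087-45318771, minus strand, GRCm38) is the oxidase that recharges these isomerases. It measured 697, 640 and 710 CPM with PBS and 1598, 1560 and 1607 CPM with IL-3, a log2 fold change of 1.22 (SE 0.0479, adjusted p = 9.03e-12).

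P4hb, the founding protein disulfide isomerase (PDI), measured 256, 256 and 252 CPM with PBS and 416, 407 and 408 CPM with IL-3, a log2 fold change of 0.69 (SE 0.0478, adjusted p = 1.08e-08). Pdia6 rose with a log2 fold change of 0.48 (SE 0.0572). Pdia3 (ERp57), which works with the lectin chaperones, had 0.21 (SE 0.0481), a call that library totals did not keep (0.044, adjusted p = 0.550). Ero1lb (ERO1β), the second oxidase, was not called, at 18.0 ± 2.32 CPM (SD, n = 3) with PBS and 18.9 ± 1.33 CPM (SD, n = 3) with IL-3. The isomerases therefore spread over log2 fold changes from 0.21 to 2.31 within one family.

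**Figure D2:**
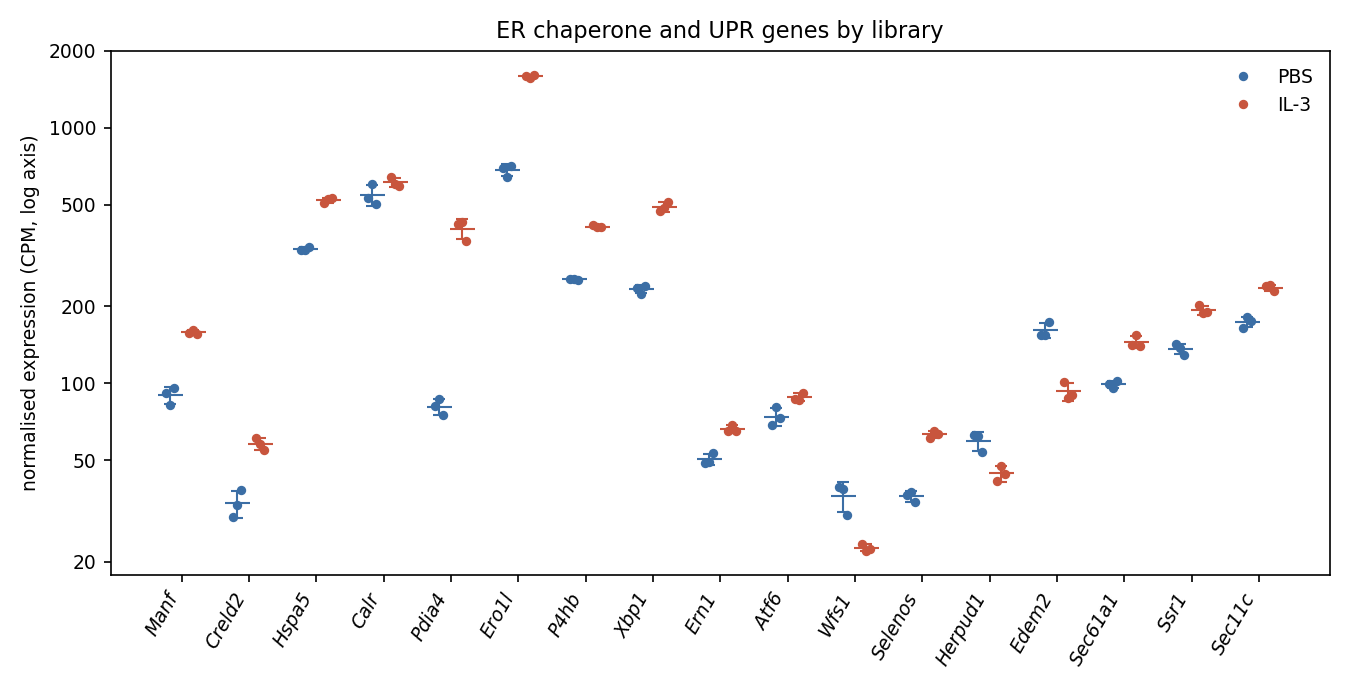
Normalised expression (CPM, log scale) of the members given by library in the text, with 1 point for each of the 3 PBS and 3 IL-3 libraries and lines for the mean ± SD. Pdia4 goes from between 75.3 and 86.5 CPM to between 362 and 427 CPM, and the IL-3 points of Edem2 lie below its PBS points.

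Compared per length of merged exons, the order of the members also shifted. With PBS the highest levels were those of Calr (189 CPM per kb), Pdia3 (150 CPM per kb) and Ero1l (129 CPM per kb). With IL-3, Ero1l came first at 301 CPM per kb, followed by Calr at 212, Pdia3 at 173, Pdia4 at 168 and Xbp1 at 151 CPM per kb. Pdia4 moved from rank 15 to rank 4 of the 39 genes, and Xbp1 from rank 9 to rank 5. Reads of these libraries need not be spread evenly along a transcript, so levels between genes are approximate. Merged exons can also be far longer than the median annotated transcript of a gene. They came to 5285 against 598 bases for Ero1l and 4229 against 720 for Hspa5, but 2399 against 2399 for Pdia4. The levels per kb and the ranks depend on this choice of length.

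All 4 genes grouped as sensors and transcription factors were called, 3 higher and 1 lower, with a median of 0.33 (0.16 with library totals). Among genes at a mean of at least 15 CPM, 52.3% were called. Xbp1 (ENSMUSG00000020484, chr11:5520659-5525893, plus strand, GRCm38) encodes the factor whose mRNA IRE1 splices to give its active form. Xbp1 measured 235, 224 and 241 CPM with PBS and 472, 485 and 514 CPM with IL-3, a log2 fold change of 1.07 (SE 0.0531, adjusted p = 1.71e-10). Counts per gene do not separate its spliced from its unspliced mRNA, so IRE1 activity was not measured. Ern1 itself measured 48.9, 49.3 and 53.2 CPM with PBS and 64.9, 68.9 and 65.2 CPM with IL-3, a log2 fold change of 0.39 (SE 0.0695, adjusted p = 2.98e-04).

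Atf6 measured 68.4, 80.7 and 73.1 CPM with PBS and 87.1, 86.2 and 91.9 CPM with IL-3, a log2 fold change of 0.26 (SE 0.0698, adjusted p = 0.00842). With library totals the Atf6 value was 0.093 and the call was lost (adjusted p = 0.341). Wfs1 (wolframin, ENSMUSG00000039474, chr5:36966104-36989205, minus strand, GRCm38), an ER membrane protein that restrains ATF6, went the other way. Wfs1 measured 39.2, 38.8 and 30.5 CPM with PBS and 23.5, 22.2 and 22.5 CPM with IL-3, a log2 fold change of -0.67 (SE 0.106, adjusted p = 1.09e-04), and its groups did not overlap.

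The genes of ER-associated degradation moved in both directions. Of its 9 genes 8 were tested, of which 4 rose, 2 fell and 2 were not called, with a median log2 fold change of 0.18. That is 75% called, against 52.3% of genes at a mean of at least 15 CPM. The summed level of the group lay between 679 and 689 CPM with PBS and between 677 and 690 CPM with IL-3, so on this scale rises and falls balanced. As a share of all counts, which is not scaled by TMM, the same sum was lower with IL-3, at 0.0651%, 0.0642% and 0.0636% against 0.0707%, 0.0716% and 0.0736% with PBS, and with library totals the median of the group was 0.019. Selenos, a selenoprotein of the retrotranslocation complex, measured 36.4, 37.7 and 34.3 CPM with PBS and 60.9, 64.9 and 63.6 CPM with IL-3, a log2 fold change of 0.81 (SE 0.0740, adjusted p = 3.2e-07). Edem2 (ENSMUSG00000038312, chr2:155701677-155729475, minus strand, GRCm38), which starts the trimming of mannose that marks glycoproteins for degradation, measured 155, 154 and 174 CPM with PBS and 101, 87.8 and 89.6 CPM with IL-3. Its log2 fold change was -0.80 (SE 0.0701, adjusted p = 1.88e-07), or a ratio of 0.576.

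Herpud1 (ENSMUSG00000031770, chr8:94386438-94395377, plus strand, GRCm38), an ER stress-inducible scaffold of the degradation complex, measured 62.5, 62.0 and 53.7 CPM with PBS and 41.4, 47.6 and 44.2 CPM with IL-3. Its log2 fold change was -0.42 (SE 0.0827, adjusted p = 8.00e-04). The ubiquitin ligase Syvn1 (HRD1) had a log2 fold change of 0.28 (SE 0.0817), its adaptor Sel1l had 0.24 (SE 0.0640) and the channel protein Derl1 had 0.23 (SE 0.0623), and all 3 were called. With library totals none of these 3 calls held (adjusted p = 0.303, 0.436 and 0.421), and that of Syvn1 was also lost without IL-3 replicate 2 (adjusted p = 0.0511; its range over the alternatives was 0.0122 to 0.303). Edem1, a relative of Edem2, was not called at 0.13 (SE 0.0536, adjusted p = 0.0693), nor was Derl2 at 0.037 (SE 0.0713). Derl3 was not tested, with 1, 4 and 8 counts in the PBS libraries and 3, 3 and 5 counts in the IL-3 libraries.

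Of the 9 genes of translocation and signal peptide removal, 6 rose and 3 were not called, with a median log2 fold change of 0.42 (0.25 with library totals). That is 66.7% called, against 52.3% of genes at a mean of at least 15 CPM. Sec61a1, the pore-forming subunit of the channel, measured 99.2, 95.9 and 102 CPM with PBS and 141, 154 and 140 CPM with IL-3, a log2 fold change of 0.55 (SE 0.0609, adjusted p = 2.62e-06). Ssr1, a subunit of the translocon-associated protein complex, measured 142, 137 and 129 CPM with PBS and 203, 188 and 189 CPM with IL-3, a log2 fold change of 0.50 (SE 0.0587, adjusted p = 4.45e-06). Sec11c, a catalytic subunit of the signal peptidase, measured 165, 182 and 175 CPM with PBS and 239, 242 and 229 CPM with IL-3, a log2 fold change of 0.44 (SE 0.0560, adjusted p = 1.10e-05). In these 3 genes the groups did not overlap.

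The other subunits of the same complexes did not all move alike. Sec61g rose with a log2 fold change of 0.42 (SE 0.0889), while Sec61b had 0.11 (SE 0.0748, adjusted p = 0.265) and was called only without IL-3 replicate 1 (0.20, adjusted p = 0.0283; the range over the alternatives was 0.0283 to 0.665). Ssr2 rose with 0.42 (SE 0.0638), and Ssr3 had 0.10 (SE 0.0534) and was not called. Among the signal peptidase subunits, Spcs2 had 0.16 (SE 0.0567, adjusted p = 0.0391) and Spcs1 had -0.011 (SE 0.0547, adjusted p = 0.900). The call of Spcs2 was lost without any one library (adjusted p 0.0531 to 0.128), with library totals (0.952), without the filter (0.0529) and with the replicate number as a block (0.0592). No test of the difference between subunits was made.

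Some of these reads cannot be placed with certainty. Of the 50-base stretches of the transcripts, 17.4% of Sec61b, 14.8% of Sec61g and 9.26% of Ero1lb also occur in transcripts of another gene, while the share was 0 in Hspa5, Pdia4, P4hb, Xbp1, Herpud1 and Wfs1. Exons of another gene on the opposite strand covered 16.3% of Spcs1, 12.8% of Ssr2, 10.3% of Hsp90b1, 8.85% of Manf and 8.16% of Sec61a1 exon bases. The sources used here do not say whether counting used the strand, so reads of such partners cannot be told apart.

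XBP1 and ATF6 are known to act through the ER stress response element (ERSE), which is CCAAT, then 9 bases, then CCACG, and ATF6 also through ERSE-II, which is ATTGG, then 1 base, then CCACG. RefSeq promoters (GRCm38.p6, from 250 bases before to 50 after the start) were found for 32 of the 39 genes and searched on both strands for exact matches. The ERSE stood in 10 of the 32 genes (31.2%), against 39 of 32851 promoters in all (0.119%). ERSE-II stood in Herpud1 and Dnajb11, against 0.0365% of all promoters. The core TGACGTGG, whose closing letters CGTGG are CCACG as read on the other strand, stood in none of the 32 and in 0.676% of all promoters. A gene was counted if any of its promoters matched, while the shares of all promoters count single promoters. The list was taken by name to hold UPR genes, so its higher share of the ERSE is no finding of these data. The windows below are those of genes that rose, fell or were not called, shown to let the shared letters be compared, with the motif letters in capitals. Where the motif lies on the other strand it reads CGTGG, then 9 bases, then ATTGG.
Hspa5 (chr2:34772020-34772048, plus strand, called higher): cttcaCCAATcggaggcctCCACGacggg
Pdia6 (chr12:17266486-17266514, plus strand, called higher): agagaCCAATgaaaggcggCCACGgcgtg
Syvn1 (chr19:6046527-6046555, plus strand, called higher): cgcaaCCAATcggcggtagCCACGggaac
Creld2 (chr15:88819515-88819543, plus strand, called higher): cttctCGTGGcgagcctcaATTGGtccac
Calr (chr8:84847070-84847098, minus strand, called higher): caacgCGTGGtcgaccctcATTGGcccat
Canx (chr11:50325795-50325823, minus strand, not called): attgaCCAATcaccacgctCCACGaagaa
Dnajc3 (chr14:118937822-118937850, plus strand, not called): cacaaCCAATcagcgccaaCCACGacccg
Herpud1 (ERSE-II, chr8:94386372-94386392, plus strand, called lower): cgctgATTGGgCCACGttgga

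Hsp90b1, called higher, held the ERSE at 2 places, and Ero1lb (not called) and Derl3 (not tested) held it once each. The Hspa5 motif begins at position -65 from the RefSeq start and lies in the first exon of a longer GENCODE transcript of the gene. Of the 9 tested genes with an ERSE, 6 rose, none fell and 3 were not called, the median log2 fold change being 0.28 and the range 0.032 to 0.77. Of the 22 genes whose promoter had no exact ERSE, 12 rose, 3 fell and 7 were not called, with a median of 0.18 and a range from -0.80 to 2.31. Among all genes at a mean of at least 15 CPM, 29.4% were called higher and 22.8% lower. No test compared genes with and without the ERSE. The largest rises, Pdia4, Ero1l and Xbp1, were among those without the exact letters in this window. The 7 genes with no promoter in the table (Hyou1, Manf, Atf6, Derl1, Sec61a1, Ssr2 and Sec11c) were all called higher, with a median of 0.44. Whether these genes hold the element was not examined. A match or its lack describes only these letters in these windows.

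**Figure D3:**
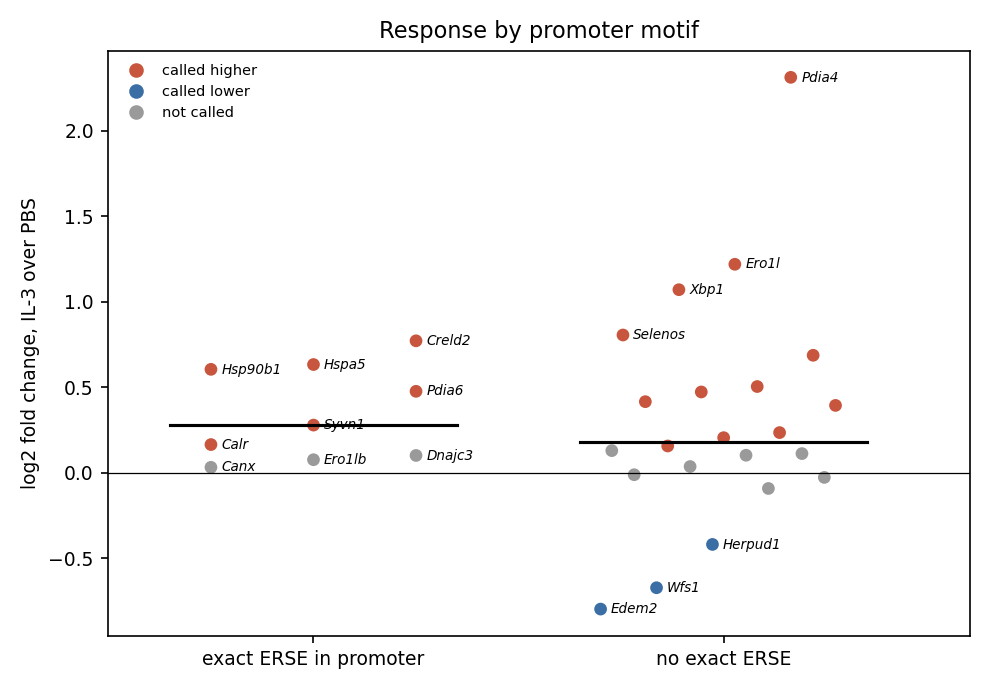
Log2 fold change (IL-3 over PBS) of the tested members with and without an exact ERSE in the RefSeq promoter, 1 point per gene, with the group medians (0.28 and 0.18) as horizontal lines. The genes without the exact element reach from Edem2 at -0.80 to Pdia4 at 2.31, and those with it lie between 0.032 and 0.77.

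The PERK branch and the integrated stress response, which PERK and other kinases start by slowing translation, were read from 11 genes outside the 39. Of these, 5 rose, 2 fell and 4 were not called. That is 63.6% called, against 38.2% of all tested genes and 52.3% of those at 15 CPM or more. The median was 0.25. That median was 0.092 with library totals, and it was 0.13 without PBS replicate 2, 0.16 without IL-3 replicate 1 and 0.42 without IL-3 replicate 3. Eif2ak3, the gene of PERK, measured 10.7, 12.4 and 17.3 CPM with PBS and 14.3, 14.2 and 15.8 CPM with IL-3, and was not called (log2 fold change 0.14, SE 0.159, adjusted p = 0.529). Atf4, the transcription factor of this branch, rose from 190, 184 and 155 CPM to 240, 265 and 243 CPM, with a log2 fold change of 0.50 (SE 0.0715, adjusted p = 4.17e-05). Ddit3 (CHOP), the ATF4 target tied to cell death, fell from 65.6, 53.1 and 54.2 CPM to 42.6, 41.0 and 44.5 CPM, with a log2 fold change of -0.43 (SE 0.0880, adjusted p = 9.86e-04). Bbc3 (PUMA), a pro-apoptotic gene, fell as well, with a log2 fold change of -0.63 (SE 0.115). Nupr1 and Trib3, stress-inducible genes, rose by 1.08 (SE 0.295) and 0.97 (SE 0.292) on the log2 scale from means of 1.77 and 1.46 CPM. The Trib3 call was lost without PBS replicate 1, PBS replicate 2 or IL-3 replicate 3 (adjusted p 0.0582 to 0.0625) and in the DESeq2 Wald test (adjusted p = 0.0508).

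Among other ER stress sensors, proteases and factors, 5 of 11 tested genes rose and none fell (45.5% called, between the 38.2% of all tested genes and the 52.3% of those at 15 CPM or more). The median was 0.22, or 0.054 with library totals. The clearest was Creb3l2, an ER-anchored transcription factor that acts on genes of the secretory pathway. Creb3l2 measured 69.4, 66.7 and 67.7 CPM with PBS and 198, 208 and 208 CPM with IL-3, a log2 fold change of 1.59 (SE 0.0572, adjusted p = 3.26e-12). Nfyb, a subunit of the factor that binds CCAAT, rose with a log2 fold change of 0.58 (SE 0.107).

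The further ER genes were counted in the same way, and no test compared these lists with the 39. Their shares called stand beside 38.2% of all tested genes and 52.3% of those at a mean of at least 15 CPM, and the first 2 lists lie near the former and below the latter. With library totals their medians were -0.011, -0.015, 0.014 and 0.019 in the order below, with the median of all genes shifted by -0.16 in that setting, so the sign against 0 depends on the scaling. Of 20 tested genes of folding and quality control, 7 rose and 1 fell (40% called, median 0.15), with Mogs at 0.70 (SE 0.138), Fkbp11 at 0.62 (SE 0.174) and Fkbp2 at -0.49 (SE 0.0901). Of 18 further degradation genes, 6 rose and 1 fell (38.9% called, median 0.15), with Fam8a1, a partner of HRD1, at 1.18 (SE 0.145), Ubxn4 at 0.57 (SE 0.0570) and Edem3, another relative of Edem2, at -0.24 (SE 0.0869). The Edem3 call, at an adjusted p of 0.0423, was lost with the replicate block (0.0519) and in 6 other alternatives, over which it ranged up to 0.177. Of 16 further translocation genes, 8 rose and 1 fell (56.2% called, median 0.18), with Srpr, the receptor of the signal recognition particle, at 0.46 (SE 0.0730), Spcs3 at 0.31 (SE 0.0677) and Tram2 at -0.63 (SE 0.169). Spcs3 was not called with library totals (0.15, adjusted p = 0.101). Of 12 genes of the oligosaccharyltransferase, which attaches sugars to nascent chains, 6 rose and 1 fell (58.3% called, median 0.18), with Ost4 at 0.45 (SE 0.0682), Ostc at 0.40 (SE 0.0624) and Tusc3 at -0.52 (SE 0.0904).

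The cytosolic heat shock chaperones, which fold proteins outside the ER, were counted beside the ER genes, and of 18 tested 12 rose and 1 fell (72.2% called, median 0.29, or 0.13 with library totals). All tested genes had 38.2% called, and those at 15 CPM or more 52.3%. Hspa1a and Hspa1b, near-identical Hsp70 copies between which reads are split with uncertainty, had the largest values, 1.95 (SE 0.582) and 1.79 (SE 0.532). The high values stood in IL-3 replicates 1 and 2 only: Hspa1a measured 15.1, 11.6 and 1.01 CPM in the IL-3 libraries against 3.19, 2.02 and 1.76 CPM with PBS. Neither was called in the DESeq2 Wald test or in limma-voom, where adjusted p lay between 0.0830 and 0.298, nor without IL-3 replicate 1 (adjusted p = 0.0883 and 0.115) or PBS replicate 2 (adjusted p = 0.0521 and 0.0536). The Hspa1a call was also lost without PBS replicate 3 or IL-3 replicate 2 (adjusted p = 0.0559 and 0.0536). Bag3, a co-chaperone of Hsp70, fell, with a log2 fold change of -0.73 (SE 0.108).

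**Figure D4:**
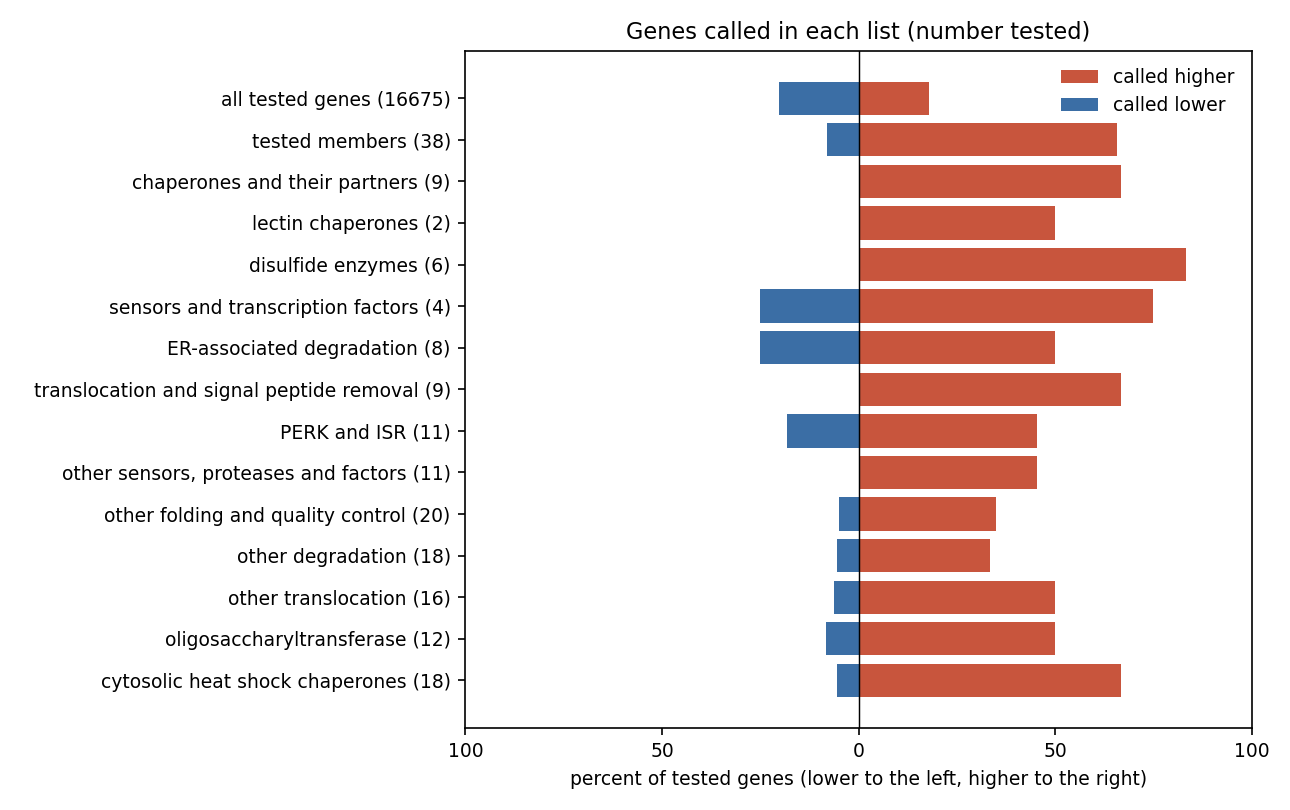
Percent of tested genes called higher (to the right) and lower (to the left) among all tested genes, the tested members, their role groups and the further gene lists, with the number tested in brackets. All tested genes stand at 18.0% higher and 20.2% lower, and the bar of the disulfide enzymes holds 5 of 6 genes, all higher.

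Library totals ranged from 10537540 to 13999287 counts. A count of 0 allows up to 3 counts, which is 0.233 to 0.296 CPM in these libraries and covers counting error only. Log2 expression correlated across genes with r between 0.985 and 0.988 within groups and between 0.952 and 0.957 across groups. Of 6 tested mast cell markers 4 were higher (841 to 945 CPM against 1438 to 1572 CPM).

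Plasma cells, known for a large ER and high XBP1, were looked for by their markers. Tnfrsf17 was at 0 in all 6 libraries, and Jchain, Mzb1 and Igkc had group means of at most 0.400 CPM. Sdc1 and Ighm were lower with IL-3 and Irf4 was higher, the latter from 0.802 to 13.7 CPM, and Prdm1 was not called (log2 fold change -0.035). The sum of the 8 markers lay between 117 and 136 CPM with PBS and between 55.6 and 63.4 CPM with IL-3, and most of it was Sdc1, at 97.8 to 113 CPM with PBS and 27.8 to 36.1 CPM with IL-3. Of 4 plasmacytoid dendritic cell markers 2 were lower (70.4 to 76.4 CPM against 43.1 to 48.8 CPM). Of 5 tested eosinophil markers 1 was higher and 3 were lower (155 to 173 CPM against 95.0 to 136 CPM), and of 4 tested neutrophil markers 1 was higher and 1 lower (64.4 to 102 CPM against 64.0 to 115 CPM).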

How the data were processed

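Bulk RNA-seq of BMBAs was read from 1 table of raw counts, summed by gene symbol, that the authors deposited for all 6 libraries. According to the methods, poly(A) RNA was captured on beads and amplified as whole-transcriptome cDNA (TAS-Seq) and reads were counted per gene. The methods mention no molecular identifiers in bulk libraries, and PCR copies may have been counted as separate reads. Reads were trimmed (Cutadapt 3.4 per the labels) and mapped with Bowtie2 to reference RNA. The methods name GRCm38 and the labels GRCm39. The labels give column-purified RNA and the methods direct lysis.

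The test was that of edgeR 4.0.16 (R 4.3.3, filterByExpr, TMM, quasi-likelihood F test, two-sided, group as the only term), with Benjamini-Hochberg adjustment over 16675 genes. Calls needed an adjusted p below 0.05. CPM is after TMM, and SE was derived from F. No sample column was left unused. The members and all gene lists were chosen with earlier results of these data known, and the background at 15 CPM was chosen after seeing these data. Members are all named, in every library for Hspa5, Xbp1, Ern1, Atf6 and the 3 called members of largest absolute change per role. Outside them, Eif2ak3, Atf4, Ddit3 and the 2 highest and 2 lowest called genes per list are named. Where a list had fewer calls of a direction, only those are given. Marker genes were named after their values were seen.

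Positions, exon lengths and shared 50-base stretches came from GENCODE M21 (GRCm38), in which all 39 genes were found. Promoters came from RefSeq. Protein ends were not analysed here. Scripts were tested on simulated data. Alternatives were DESeq2 1.42.0 size factors or Wald test, limma-voom (limma 3.58.1), library totals, 2 other filters, a replicate block, a stricter threshold and leaving out each library.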

Additional observations from a re-analysis of the deposited data

How the results depend on the processing

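Of the 28 called members, 21 kept their direction and call in all 13 alternatives run for each member, and the others were Calr, Pdia3, Atf6, Syvn1, Sel1l, Derl1 and Spcs2. With library totals in place of TMM, the median of all genes shifted by -0.16, 1698 were called higher (all genes called lower: 5030), 5 members were called lower (Dnajb9 at -0.25 and Spcs1 at -0.17 joined) and the member median was 0.10, and the share of calls that were higher was 25.2% in place of 47.1% over all genes and 78.3% in place of 89.3% among the members. The same setting gave log2 fold changes of the opposite sign for Canx (-0.13), Dnajc3 (-0.060), Edem1 (-0.033), Derl2 (-0.13), Sec61b (-0.051), Ssr3 (-0.060), Spcs2 (-0.0055), Ero1lb (-0.088) and Eif2ak3 (-0.024), and without the filter Spcs1 was at 0.00055. Which scaling is nearer to the RNA per cell cannot be told from these data. Leaving out each library in turn gave 22 to 24 members higher, 3 lower in each case and a median of 0.25 to 0.30. It also moved Canx between -0.0038 and 0.066, Sdf2l1 between -0.089 and 0.020, Spcs1 between -0.031 and 0.0064, Ero1lb between -0.027 and 0.15 and Eif2ak3 between -0.0010 and 0.36, none of which was called. The replicate numbers did not pair the libraries (correlation of same-numbered deviations -0.0087, -0.016 and -0.022), and with the replicate number as a block 24 members were higher and 3 lower. At an adjusted p threshold of 0.01, 22 members were higher and 3 lower. DESeq2 and limma-voom kept all 28 calls. The members' share of counts without the most abundant row, a ribosomal RNA, was 0.701% with PBS and 0.926% with IL-3.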
